A study of Mus musculus with 16 samples.

Results

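Siglec1, Siglece, Siglech, Cd33, Cd22 and Siglecg encode 6 mouse sialic acid-binding lectins, and their transcripts were followed through 4 populations of myeloid cells from adult mice. The genes were chosen by symbol from the deposited count table. All 6 were found among its 45664 gene entries, and all 6 passed the filter on low counts that left 15754 genes for testing. The study compared cornea macrophages, retinal microglia, brain microglia and bone marrow monocytes, with 4 RNA-seq libraries of each. All mice were C57BL/6 animals of 8 to 10 weeks, and no genotype or treatment differed between the populations. Corneas were digested with collagenase D at 37 °C and their macrophages gated on CD45, CD11b, CD64 and F4/80. Microglia were sorted as CD45+CD11b+ cells, those of the retina after mechanical dissociation in the cold, and monocytes as CD45+CD11b+CD115+Ly6C+ cells from whole marrow. Each cornea or retina library came from 10 pooled mice. The descriptions of all 8 brain and marrow libraries instead name retinal microglia, against their titles and source names. These libraries were grouped by title and source name, and their pool size is not known.

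Siglecs are membrane lectins of the immunoglobulin superfamily that read sialic acids, the charged sugars that cap the glycans of vertebrate cells. Most carry cytoplasmic tyrosine motifs that recruit the phosphatases SHP-1 and SHP-2 and restrain the cell when self glycans are bound. Siglec1 (sialoadhesin, CD169) has a long extracellular stalk and no such motif, and marks some tissue-resident macrophages and macrophages exposed to interferon. Siglece encodes an inhibitory receptor of myeloid cells, and Cd33 encodes another siglec of myeloid cells. Human CD33 is a known Alzheimer's disease risk gene in microglia. Siglech signals through the adaptor DAP12, is a marker of plasmacytoid dendritic cells and, in the brain, of microglia. Cd22 and Siglecg encode the inhibitory siglecs best known from B cells, and Cd22 has also been described in aged mouse microglia as a brake on phagocytosis.

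In the GRCm38 annotation (GENCODE), 5 of the 6 genes lie on chromosome 7. Siglecg, at chr7:43408204-43418358 on the plus strand, Cd33, at chr7:43524216-43544428 on the minus strand, and Siglece, at chr7:43651070-43660161 on the minus strand, stand in one cluster that opens with their relative Siglecf and spans 308.8 kb. Siglech lies apart at chr7:55768178-55778925 on the plus strand, and Cd22 at chr7:30865402-30880342 on the minus strand. Siglec1 is on chromosome 2, at chr2:131069220-131086765 on the minus strand. Cd22 shares 479 exon bases with the antisense gene Gm29439, which had 0 counts in all 16 libraries. The counted exon lengths run from 1849 bases for Siglece to 7143 bases for Siglec1, so levels are compared between genes only per length.

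Siglece, Siglech, Cd33 and Cd22 were the members whose transcripts were higher in both microglial populations than in monocytes, and their promoter sequences are shown for that reason. Each window of 300 bases, taken from RefSeq on GRCm38.p6, runs across a transcription start on the strand of the gene, and capitals mark the core of the motif bound by the myeloid factor PU.1, GAGGAA on either strand.
Siglece, chr7:43660112-43660411, minus strand: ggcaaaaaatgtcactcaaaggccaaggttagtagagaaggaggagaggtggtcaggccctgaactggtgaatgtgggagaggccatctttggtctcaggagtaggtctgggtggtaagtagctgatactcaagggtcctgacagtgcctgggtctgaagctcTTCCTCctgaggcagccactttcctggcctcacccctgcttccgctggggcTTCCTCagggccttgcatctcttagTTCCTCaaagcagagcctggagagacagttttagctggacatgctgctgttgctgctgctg
Siglech, chr7:55767934-55768233, plus strand: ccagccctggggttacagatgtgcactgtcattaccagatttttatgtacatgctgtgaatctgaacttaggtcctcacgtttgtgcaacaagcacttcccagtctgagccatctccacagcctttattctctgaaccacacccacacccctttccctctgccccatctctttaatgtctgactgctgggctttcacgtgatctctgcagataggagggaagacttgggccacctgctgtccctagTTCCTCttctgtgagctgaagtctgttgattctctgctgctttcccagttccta
Cd33, chr7:43533122-43533421, minus strand: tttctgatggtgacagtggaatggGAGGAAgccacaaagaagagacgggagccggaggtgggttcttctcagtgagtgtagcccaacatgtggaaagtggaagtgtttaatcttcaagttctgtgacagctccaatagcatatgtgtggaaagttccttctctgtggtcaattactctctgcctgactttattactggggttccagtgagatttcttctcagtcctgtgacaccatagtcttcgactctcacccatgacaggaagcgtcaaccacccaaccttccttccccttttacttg
Cd22, chr7:30878979-30879278, minus strand: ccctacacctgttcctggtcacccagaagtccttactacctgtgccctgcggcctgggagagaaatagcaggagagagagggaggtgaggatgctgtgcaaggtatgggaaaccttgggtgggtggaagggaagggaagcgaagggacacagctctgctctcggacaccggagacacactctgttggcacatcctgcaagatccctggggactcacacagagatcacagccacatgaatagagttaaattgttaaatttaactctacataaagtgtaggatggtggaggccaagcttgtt
Siglece held 3 such cores, which begin 87, 36 and 11 bases before the start. Siglech held 1, beginning 4 bases before it, and Cd33 held 1, beginning 226 bases before it. The Cd22 window held none, and that of Siglecg held 2 at the first of its 2 listed starts and none at the second. The core was present in 28.3% of all 32851 RefSeq promoter windows of this length, so its presence is common and a match is no evidence of binding. None of the windows of these 5 members held the interferon-stimulated response element (both strands, 3.44% of all windows), the AP-1 site searched as TGANTCA (7.81%) or the MEF2 site (3.69%). A C/EBP sequence, searched as TTGCNNAA on both strands and present in 10.8% of windows, lay 169 bases before the start of Siglech. The RefSeq starts of Cd33 and Cd22 lie inside the gene spans given above. Sequences of 5 of the 6 members were matched, all but Siglec1.

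Libraries held 8677418 to 21756558 counts. Values are given as CPM, the count relative to the library total after TMM scaling by edgeR, and RPKM is CPM per 1000 bases of the counted exon length. TMM factors were 0.661 to 0.705 in cornea libraries and 1.07 to 1.25 in the others, so scaling to total counts only lowers the cornea values relative to the rest: the median gene shifted by -0.79 on the log2 scale against retinal microglia, by -0.67 against brain microglia and by -0.67 against monocytes. Of the marker lists, 7 genes of classical monocytes summed to 65.4 to 86.2 CPM in cornea libraries, 2.44 to 3.71 in retinal, 5.06 to 9.14 in brain and 11177 to 15286 in marrow libraries. The 9 microglial genes summed to 2165 to 2600 CPM in cornea libraries, 30033 to 38509 in retinal, 49169 to 55539 in brain and 593 to 932 in marrow libraries. The sequencing lane in the column headers is not balanced: all 4 retinal libraries ran on lane 2 and all 4 brain libraries on lane 3, while 3 cornea libraries and 1 marrow library ran on lane 2 and 1 cornea library and 3 marrow libraries on lane 3. No lane holds both kinds of microglia, so differences between them rest on a fit with lane as a term for any allowance for lane. Cornea replicates 1 and 2, retinal replicates 1 and 2, and retinal replicates 3 and 4 share a number in their titles, 1 of each pair lacking the letter b. Their counts differed by more than sampling noise, which cannot show whether the libraries of a pair came from separate mice. They were kept as separate samples. In sorted pools, fewer cells expressing a gene and less RNA of it per cell cannot be told apart.

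Per length, a different member led in cornea macrophages, in both microglial populations and in monocytes. The summed RPKM of the 6 genes was 200.0 ± 11.2 in cornea macrophages, 551 ± 88.9 in retinal microglia, 666 ± 26.1 in brain microglia and 22.6 ± 1.95 in monocytes (SD, n = 4 each). In cornea macrophages Cd33 made up 75.8% of that sum and Siglece 16.6%. In retinal microglia Siglech held 76.6% and Cd33 16.8%, close to the 75.0% and 17.7% seen in brain microglia. In monocytes the sum was small and more evenly divided, with 44.5% from Siglece, 34.5% from Cd33, 12.9% from Siglecg and 7.36% from Siglec1. Cd22 was at most 1.23% in each of the 16 libraries.

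**Figure D1:**
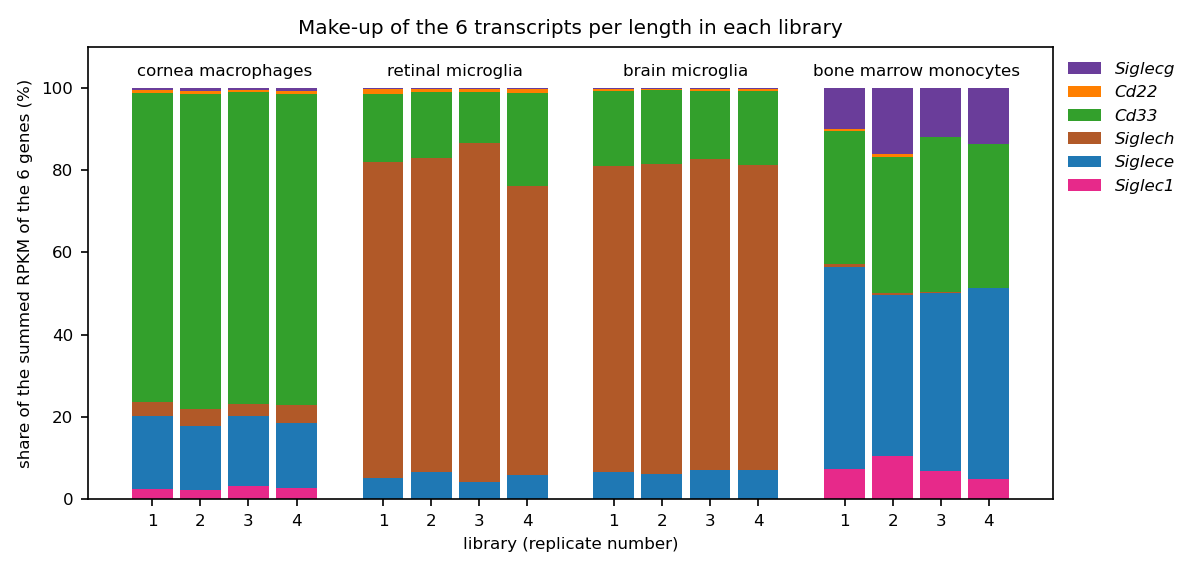
Share of each gene in the summed RPKM of the 6 lectins, as stacked bars for each of the 16 libraries in percent. Cd33 fills 75.0 to 76.8% of every cornea bar, Siglech most of every microglial bar, and Siglece and Cd33 most of every marrow bar.

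Siglec1, which encodes the sialic acid-binding adhesion receptor CD169, was highest in cornea macrophages and was close to the detection limit in brain microglia. It measured 31.1, 33.3, 46.2 and 39.5 CPM in the 4 cornea libraries, against 4.34, 1.42, 2.42 and 0.765 CPM in retinal microglia. Brain microglia gave 0.257, 1.73, 0.198 and 0.145 CPM, or 3, 17, 2 and 2 counts, and monocytes gave 12.7, 14.8, 11.6 and 7.74 CPM. Cornea libraries overlapped with no other population, and the monocyte libraries lay between them and both microglial populations. Siglec1 was 17.3-fold higher in cornea macrophages than in retinal microglia (log2 fold change 4.11, SE 0.55, adjusted p = 4.63e-06 by the quasi-likelihood test of edgeR, with p-values adjusted by the Benjamini-Hochberg method across 15754 genes, as in all tests that follow). It was 67.3-fold higher than in brain microglia (6.07, SE 0.64, adjusted p = 2.74e-07; 7.50 without brain replicate 2) and 3.22-fold higher than in monocytes (1.69, SE 0.49, adjusted p = 0.00609). Within lane 2 the difference from retinal microglia was 4.06, and within lane 3 that from brain microglia was 6.13. The difference from monocytes was 1.54 within lane 2, where it was not called (adjusted p = 0.15), and 1.80 within lane 3 (adjusted p = 0.0327); with scaling to total counts only it was 1.01 and was not called (adjusted p = 0.0826).

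Retinal microglia had 5.37-fold less Siglec1 than monocytes (log2 fold change -2.42, SE 0.52, adjusted p = 0.00073), and brain microglia 20.9-fold less (-4.39, SE 0.62, adjusted p = 1.15e-05; -5.83 without brain replicate 2). These were -2.52 within lane 2 and -4.33 within lane 3. Without the libraries lacking the letter b, which leaves retinal replicates 2 and 4, the differences of retinal microglia were -3.41 from monocytes (adjusted p = 0.000572) and 0.96 from brain microglia (adjusted p = 0.493), and cornea macrophages exceeded them by 5.16 (adjusted p = 2.87e-05). Between retinal and brain microglia the log2 difference was 1.96 (SE 0.63), which missed the threshold (adjusted p = 0.0573). Without brain replicate 2, which held 17 of the 24 Siglec1 counts of the brain libraries, it was 3.40 and passed (adjusted p = 0.00284). DESeq2 called it with all libraries (1.97, adjusted p = 0.00979), and it also passed without retinal replicate 4 (2.27, adjusted p = 0.0271), with total counts only (2.06, adjusted p = 0.0495) and without the filter on low counts (1.98, adjusted p = 0.0427). With lane as a term it was 1.94 (adjusted p = 0.265). Brain replicate 2 also had the highest sum of 9 neutrophil genes among the brain libraries, 18.4 CPM against at most 0.198 CPM in the other 3, while its sum of 8 border macrophage genes was 16.0 CPM, within the brain range of 14.8 to 30.4 CPM. The part of these transcripts in the Siglec1 count was not tested.

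In mean CPM after TMM scaling, Siglec1 followed the same order of populations as the sum of 16 interferon-response genes. The Siglec1 step between retinal and brain microglia was not called, and the libraries overlapped. Between cornea macrophages and monocytes the median log2 difference of the list was -0.013, and the Siglec1 call ended with total counts only. The list summed to 3482 to 5572 CPM in cornea macrophages, 445 to 615 in retinal microglia, 189 to 221 in brain microglia and 2737 to 3173 in monocytes. Of the 16, 14 were higher and 0 lower in cornea macrophages than in retinal microglia, 15 higher and 0 lower than in brain microglia, and 6 higher and 6 lower than in monocytes (14 and 1, 15 and 1, and 4 and 10 with total counts only). In retinal microglia 15 were higher and 0 lower than in brain microglia, and all 16 were lower in each microglial population than in monocytes. Of all tested genes, 66.0%, 66.8% and 63.3% were called in the cornea comparisons with retina, brain and marrow. The shares were 10.5% between the microglia, and 59.3% and 56.0% in the retinal and brain comparisons with marrow. In brain replicate 2, where Siglec1 stood above the other brain libraries, the sum was 221 CPM, the highest of its population. Of 8 border and tissue macrophage genes, 8 were higher in cornea macrophages than in each microglial population, and 7 were higher and 1, F13a1, lower than in monocytes. The shares of all genes called in these cornea comparisons are those just given. All 8 summed to 4775 to 5266 CPM in cornea macrophages, 24.9 to 48.4 in retinal microglia, 14.8 to 30.4 in brain microglia and 5660 to 8197 in monocytes, where F13a1 averaged 6386 CPM. The other 7, a choice made after these values were seen, summed to 4231 to 4419 CPM in cornea macrophages, 24.6 to 35.2 in retinal microglia, 14.6 to 28.9 in brain microglia and 36.6 to 43.4 in monocytes, so their populations also stood in the order of Siglec1, with the microglial ranges overlapping. The genes with the most similar profile over the 16 libraries were Ddx60, an interferon-inducible helicase (Pearson r of log2 CPM 0.9651), Arl5c (0.9625) and Batf (0.962). Ddx60 averaged 68.4 CPM in cornea macrophages, 13.8 in retinal microglia, 10.3 in brain microglia and 38.2 in monocytes. These libraries share the differences between 4 populations, so such values describe a profile only.

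**Figure D2:**
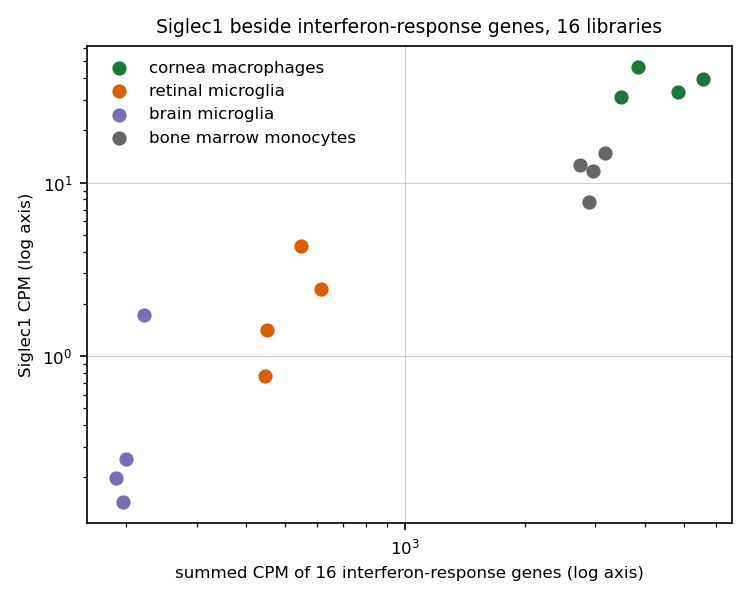
Siglec1 CPM against the summed CPM of 16 interferon-response genes, both on log axes, with 1 point per library. After TMM scaling, the population means stand in the same order on both axes. The order runs from brain microglia at the lower left through retinal microglia and monocytes to cornea macrophages. Brain replicate 2, at 1.73 CPM, stands above the other brain libraries and within the Siglec1 range of the retinal libraries.

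Siglech separated both microglial populations from the other cells more widely than any other member. It measured 1432, 1376, 1867 and 1078 CPM in retinal microglia and 1668, 1621, 1789 and 1684 CPM in brain microglia, against 21.9, 27.8, 21.1 and 30.2 CPM in cornea macrophages. The monocyte libraries held 15, 3, 2 and 0 counts, or 0.678, 0.299, 0.183 and 0 CPM; a count of 0 in the last allows up to 3 counts, and the floor of 3 counts was 0.136 to 0.299 CPM in this population. The microglial libraries thus lay far above the rest, and the cornea libraries above every monocyte library. Cornea macrophages had 56.9-fold less Siglech than retinal microglia (log2 fold change -5.83, SE 0.29, adjusted p = 1.74e-11) and 66.8-fold less than brain microglia (-6.06, SE 0.29, adjusted p = 1.06e-11), and by lane the differences were -5.95 and -5.83. Their level still exceeded that of monocytes by 6.19 on the log2 scale (SE 0.37, adjusted p = 1.88e-10). Within lane 2 that difference was 5.10 and within lane 3 it was 7.61, the only marrow library of lane 2 being replicate 1, the one with 15 counts. Without that library it was 7.36, and the retinal and brain differences from monocytes given next were 13.19 and 13.43. Retinal and brain microglia exceeded monocytes by 12.02 (SE 0.40, adjusted p = 2.89e-13) and 12.25 (SE 0.40, adjusted p = 2.03e-13), with 11.06 within lane 2 and 13.44 within lane 3. Between them the log2 difference was -0.23 (SE 0.23) and was not called (adjusted p = 0.597).

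Among retinal libraries, replicate 4 had the lowest Siglech and replicate 3 the highest. Replicate 4 also had the most photoreceptor RNA, with 6865 CPM summed over 8 genes, and replicate 3 the least, with 748 CPM, against 3323 and 2051 CPM in replicates 1 and 2; the part of that RNA in the spread was not tested. The ratio of Siglech to another microglial gene also differed between the populations. Its count was 29.8 to 48.8% of that of P2ry12, a purinergic receptor of microglia, in cornea libraries, against 16.3 to 22.0% in retinal and 11.6 to 12.9% in brain microglia. Of 10 plasmacytoid dendritic cell markers, which summed to 504 to 593 CPM in cornea, 774 to 945 CPM in retinal, 777 to 870 CPM in brain and 563 to 673 CPM in marrow libraries, Ly6d was at 0 in all cornea, retinal and brain libraries. Of the 7 tested, 4 were higher and 1 lower in retinal microglia than in monocytes, and 4 higher and 2 lower in brain microglia. The called shares were 71.4% and 85.7%, beside 59.3% and 56.0% of all genes. In the cornea comparisons with retina, brain and marrow they were 57.1%, 71.4% and 71.4%, beside 66.0%, 66.8% and 63.3%. Between the microglia the share was 28.6%, beside 10.5%. Pacsin1 averaged 0.146 CPM in cornea macrophages, 5.46 in retinal microglia, 12.2 in brain microglia and 0.0113 in monocytes. Cox6a2 averaged 0.823, 4.61, 3.47 and 0.0339 CPM in the same populations, so both were highest in the microglia, as Siglech was. Bst2 and Ccr9, also among those tested, were instead highest in cornea macrophages. Bst2 averaged 186 CPM there, 93.9 in retinal microglia, 51.7 in brain microglia and 90.7 in monocytes. Ccr9 averaged 3.45, 1.52, 1.14 and 1.12 CPM in the same populations. The profiles most like that of Siglech were those of Nuak1 (r = 0.9961), Trem2 (0.9955), the DAP12-coupled lipid receptor, and Gpr34 (0.9936), a microglial lysophospholipid receptor. Trem2 averaged 192 ± 13.2 CPM in cornea macrophages, 984 ± 244 in retinal microglia, 963 ± 101 in brain microglia and 29.5 ± 4.53 in monocytes (SD, n = 4 each).

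**Figure D3:**
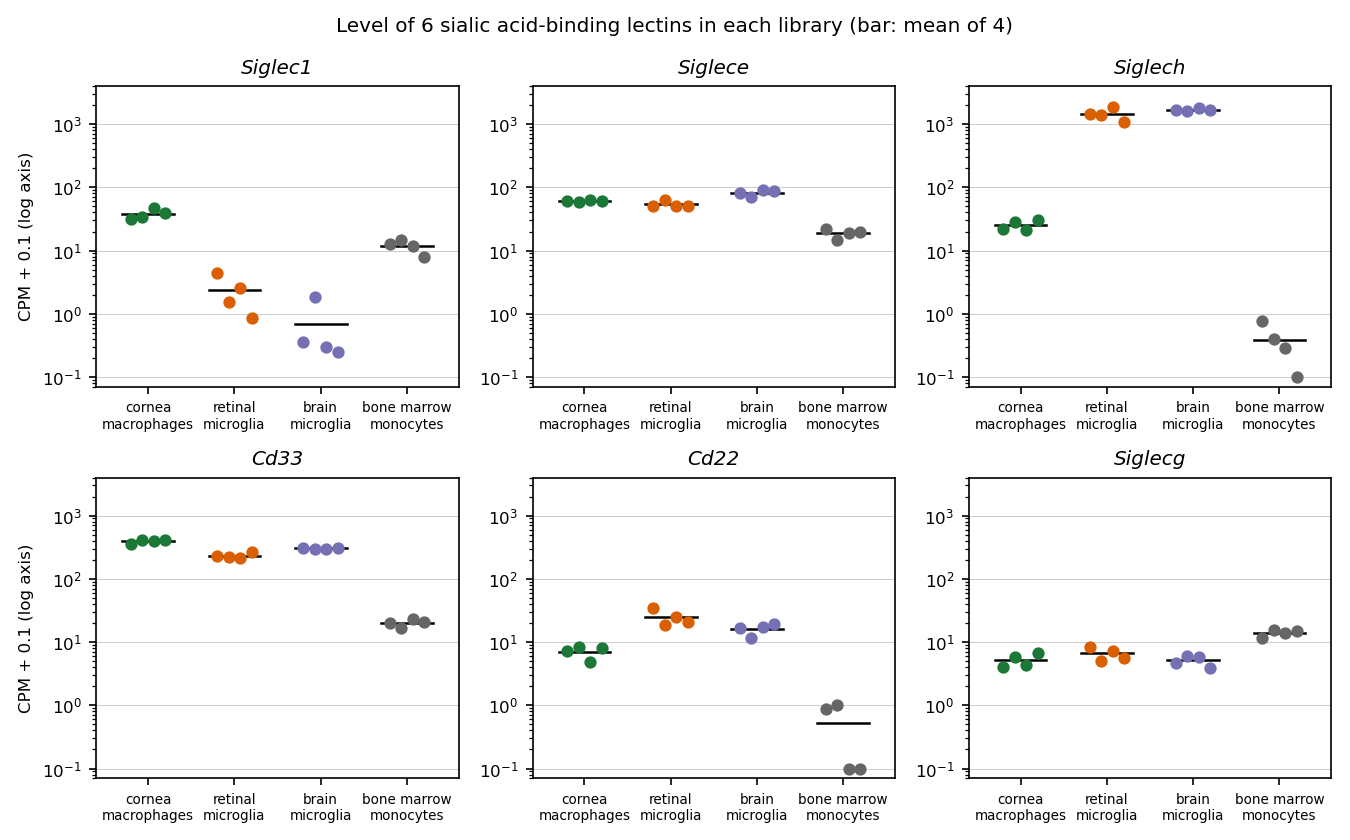
CPM plus 0.1 on a log axis for the 6 genes in every library, with 1 point per library and a bar at the mean of 4. Siglech spans the widest range, from 0 CPM in 1 marrow library to 1867 CPM in 1 retinal library, while Siglecg stays between 3.77 and 15.2 CPM.

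Cd33, a siglec of myeloid cells, was abundant in all 3 tissue populations and low in monocytes. Cornea macrophages gave 354, 405, 397 and 405 CPM, retinal microglia 231, 219, 211 and 263 CPM, brain microglia 312, 293, 296 and 311 CPM, and monocytes 19.7, 16.7, 23.2 and 20.4 CPM. No 2 populations overlapped. Cd33 was 19.5-fold higher in cornea macrophages than in monocytes (log2 fold change 4.28, SE 0.13, adjusted p = 7.7e-14), 11.5-fold higher in retinal microglia (3.53, SE 0.12, adjusted p = 4.81e-13) and 15.1-fold higher in brain microglia (3.92, SE 0.13, adjusted p = 1.46e-13). Within lanes these were 4.28 and 4.32, 3.57, and 3.93. The differences among the tissue populations were below 2-fold. Cornea macrophages exceeded retinal microglia 1.69-fold (0.75, SE 0.11, adjusted p = 1.5e-05) and brain microglia 1.29-fold (0.36, SE 0.11, adjusted p = 0.00808). Both directions depended on the scaling: with total counts only they were -0.043 (adjusted p = 0.75) and -0.31 (adjusted p = 0.0256), at a shift of the median gene of -0.79 and -0.67. Within lane 2 the cornea to retina difference was 0.71 (adjusted p = 0.00192), and within lane 3 the cornea to brain difference was 0.39 and was not called (adjusted p = 0.0808). Retinal microglia were below brain microglia by 0.39 on the log2 scale (-0.39, SE 0.11, adjusted p = 0.032). That call ended with lane as a term (-0.34, adjusted p = 0.357), with total counts only (-0.26, adjusted p = 0.169) and without the libraries lacking the letter b (-0.33, adjusted p = 0.173). It also ended without retinal replicate 1, 2 or 3 and without any 1 of the 4 brain replicates (adjusted p = 0.0516 to 0.0854). Its closest profiles were those of Rnf180 (r = 0.9963), Tpp1 (0.9927), a lysosomal peptidase, and Slc37a2 (0.992).

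Siglece, the main inhibitory myeloid siglec of mice, was above monocytes in each tissue population and highest in brain microglia. It measured 60.4, 59.2, 64.0 and 61.1 CPM in cornea macrophages, 51.1, 63.6, 50.8 and 49.8 CPM in retinal microglia, 80.4, 70.2, 91.7 and 86.9 CPM in brain microglia, and 21.6, 14.4, 19.2 and 19.5 CPM in monocytes. Each tissue library stood above every monocyte library, and cornea and retinal libraries overlapped. The level exceeded that of monocytes 3.27-fold in cornea macrophages (log2 fold change 1.71, SE 0.15, adjusted p = 1.91e-08), 2.88-fold in retinal microglia (1.52, SE 0.14, adjusted p = 1.08e-07) and 4.40-fold in brain microglia (2.14, SE 0.15, adjusted p = 1.51e-09). Within single lanes these differences were 1.50 and 1.78, 1.34, and 2.23. Cornea macrophages differed from retinal microglia by 0.18 (SE 0.14; 0.16 within lane 2), which was not called (adjusted p = 0.254) and turned to -0.61 with total counts only (adjusted p = 0.000623). They were below brain microglia by 0.43 (-0.43, SE 0.14, adjusted p = 0.0124), and within lane 3 by 0.45, which was not called (adjusted p = 0.122). Retinal microglia were 1.53-fold below brain microglia (-0.61, SE 0.14, adjusted p = 0.00866). This difference was -0.75 with lane as a term (adjusted p = 0.071) and -0.54 without the libraries lacking the letter b (adjusted p = 0.0926). Gab1, a docking adaptor of growth factor signalling (r = 0.9769), Tmem144 (0.9742) and Fcrls, a microglial Fc receptor-like gene (0.9739), had the closest profiles.

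Cd22, an inhibitory coreceptor of B cells, was detected in every microglial and cornea library at levels above monocytes. The counts were 63, 96, 61 and 119 in cornea macrophages, 429, 377, 467 and 516 in retinal microglia, 194, 112, 175 and 264 in brain microglia, and 17, 9, 0 and 0 in monocytes. In CPM these were 7.14, 8.18, 4.69 and 7.91 in cornea macrophages, 33.8, 18.4, 25.2 and 20.8 in retinal microglia, 16.6, 11.4, 17.4 and 19.2 in brain microglia, and 0.768, 0.897, 0 and 0 in monocytes. The monocyte libraries were the lowest and the cornea libraries lay between them and the microglial ones, which overlapped each other. Cornea macrophages exceeded monocytes by 3.98 on the log2 scale (SE 0.59, adjusted p = 1.48e-05), retinal microglia by 5.79 (SE 0.60, adjusted p = 3.53e-07) and brain microglia by 5.19 (SE 0.60, adjusted p = 1.01e-06). Within lanes these were 3.10 and 4.84, 5.00, and 5.89, and without marrow replicate 1, with 17 of the 26 monocyte counts, they were 4.65, 6.46 and 5.86. Cornea macrophages had 3.51-fold less than retinal microglia (-1.81, SE 0.47, adjusted p = 0.0027), with -1.90 within lane 2 and -1.52 without the libraries lacking the letter b (adjusted p = 0.0539). They had 2.31-fold less than brain microglia (-1.21, SE 0.47, adjusted p = 0.03), a call that ended with lane as a term (-1.43, adjusted p = 0.0631), within lane 3 (-1.05, adjusted p = 0.238), without cornea replicate 3 (-1.08, adjusted p = 0.0732) and without brain replicates 1, 3 or 4 (adjusted p = 0.0551, 0.054 and 0.0709). Retinal and brain microglia differed by 0.60 (SE 0.45), which was not called (adjusted p = 0.459).

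The B cell lineage factor Pax5 was at 0 in all 12 cornea, retinal and brain libraries, in which Cd22 was present. It had only 3 counts over the 4 marrow libraries. Of the 11 B cell markers, 3 were at 0 throughout in cornea macrophages, 4 in retinal microglia, 5 in brain microglia and 0 in monocytes. The 11 summed to 491 to 539 CPM, 759 to 924 CPM, 782 to 901 CPM and 578 to 664 CPM in the same populations. Among them, Ighm averaged 163 CPM in cornea macrophages, 559 in retinal microglia, 524 in brain microglia and 587 in monocytes. Blnk averaged 341, 217, 252 and 0.936 CPM in the same populations, so it was lowest in monocytes, as Cd22 was. Cd79b, a B cell receptor chain, ranged over 2.30 to 3.06 CPM in cornea macrophages, 42.8 to 79.6 in retinal microglia, 51.0 to 77.5 in brain microglia and 21.9 to 28.7 in monocytes. The profiles most like that of Cd22 were those of Pigp (r = 0.9853), C1qa, a complement C1q chain (0.9786), and Slco2b1, an organic anion transporter of microglia (0.9732). C1qa averaged 644 ± 52.9 CPM in cornea macrophages, 1765 ± 531 in retinal microglia, 1907 ± 368 in brain microglia and 2.29 ± 2.67 in monocytes (SD, n = 4 each).

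Siglecg, the other inhibitory siglec known from B cells, was the one member apart from Siglec1 that was lower in both microglial populations than in monocytes, and the only one lower in cornea macrophages. It measured 3.97, 5.79, 4.31 and 6.51 CPM in cornea macrophages, 8.36, 4.93, 7.16 and 5.59 CPM in retinal microglia, 4.63, 6.00, 5.75 and 3.77 CPM in brain microglia, and 11.3, 15.2, 13.8 and 14.9 CPM in monocytes. The tissue libraries overlapped with each other and all lay below the monocyte libraries. Relative to monocytes the level was 2.67-fold lower in cornea macrophages (log2 fold change -1.42, SE 0.26, adjusted p = 0.000169), 2.12-fold lower in retinal microglia (-1.08, SE 0.26, adjusted p = 0.00181) and 2.74-fold lower in brain microglia (-1.45, SE 0.26, adjusted p = 0.000165). The cornea difference was -1.28 within lane 2 (adjusted p = 0.0595) and -1.17 within lane 3 (adjusted p = 0.0264), and the brain difference was -1.52 within lane 3. The retinal difference was -0.78 within lane 2 (adjusted p = 0.225) and -0.77 with lane as a term (adjusted p = 0.0594), neither of which was called. Among the tissue populations no pair was called: the differences were -0.33 between cornea macrophages and retinal microglia (SE 0.26, adjusted p = 0.273), 0.04 between cornea macrophages and brain microglia (SE 0.26, adjusted p = 0.907) and 0.37 between the microglial populations (SE 0.26, adjusted p = 0.427). With total counts only the cornea differences were -1.12 (adjusted p = 0.000955) and -0.64 (adjusted p = 0.0384), beside median shifts of -0.79 and -0.67; within lanes they were -0.49 and 0.35. Its closest profiles were those of Tmem71 (r = 0.9466), Atp2a3, a calcium pump of the endoplasmic reticulum (0.9342), and Tusc1 (0.9264).

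Counted over the 6 genes, 4 were called between cornea macrophages and retinal microglia, where 66.0% of all tested genes were called, and 5 between cornea macrophages and brain microglia, where 66.8% were. All 6 were called between cornea macrophages and monocytes (63.3% of all genes), between retinal microglia and monocytes (59.3%) and between brain microglia and monocytes (56.0%). Retinal and brain microglia differed in 2 of the 6, Siglece and Cd33, against 10.5% of all genes. The median size of the log2 differences among the 6 was 2.85 between cornea macrophages and monocytes, 2.98 between retinal microglia and monocytes and 4.15 between brain microglia and monocytes. Over all tested genes these medians were 1.16, 0.98 and 0.96. Between retinal and brain microglia the median was 0.50 over the 6 genes and 0.34 over all genes. Between cornea macrophages and retinal microglia it was 1.28 over the 6 genes and 1.22 over all genes. Between cornea macrophages and brain microglia it was 0.82 over the 6 genes, below the 1.26 over all genes. Comparisons against monocytes share the monocyte libraries.

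**Figure D4:**
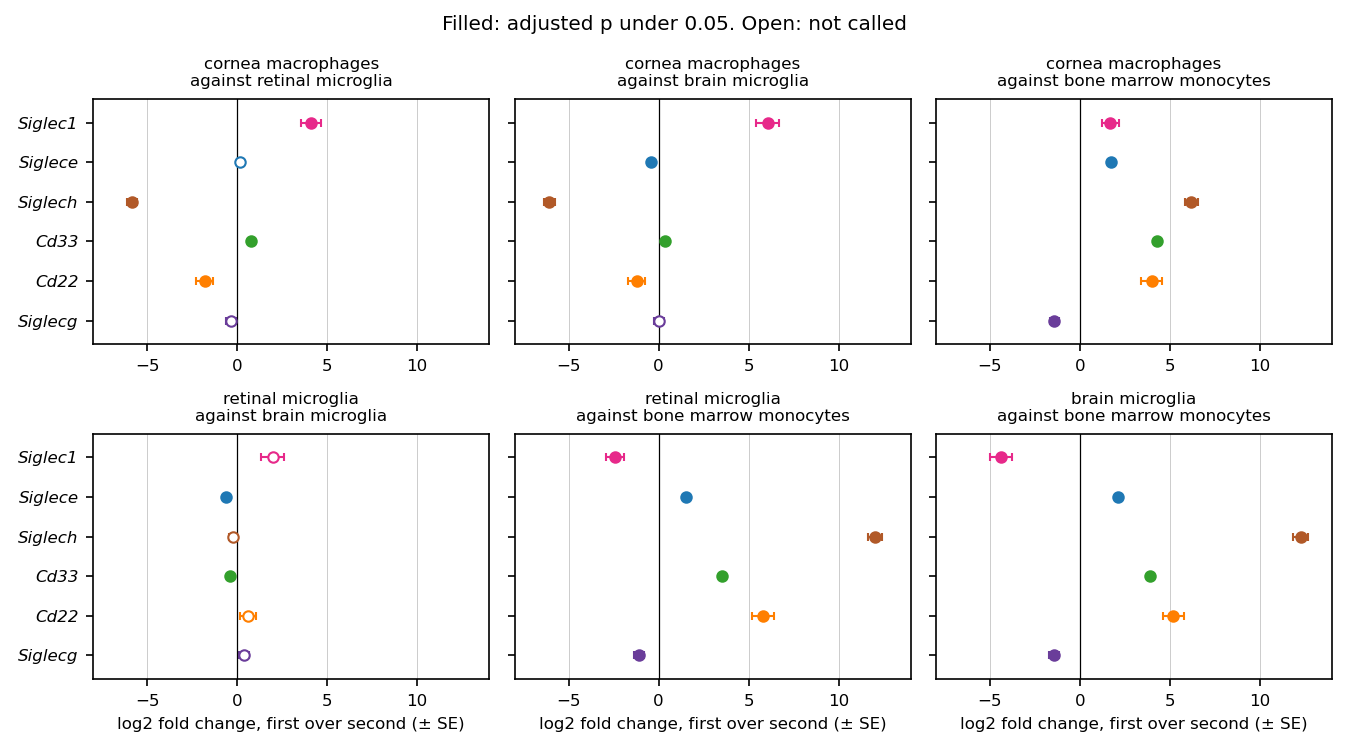
Log2 fold change with its SE for the 6 genes in each of the 6 comparisons, the first population over the second. Filled points passed an adjusted p of 0.05 in edgeR's quasi-likelihood test and open points did not. Siglec1 and Siglech move in opposite directions when cornea macrophages are set against either microglial population.

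Genes that make, carry, modify or remove sialic acid, the sugar these receptors bind, were counted in the same way. The first list covers synthesis and transport but also holds the sialidase genes Neu1 and Neu3, and Npl, Siae and Slc17a5. Its counts are therefore not those of ligand synthesis alone. Of its 12 tested genes, 2 were higher and 8 lower in cornea macrophages than in retinal microglia (1 and 10 with total counts only). Relative to brain microglia, 2 were higher and 9 lower (2 and 10). Against monocytes, 3 were higher and 7 lower in cornea macrophages (2 and 8), 4 higher and 3 lower in retinal microglia, and 6 higher and 3 lower in brain microglia. Between the microglial populations 1 was lower in the retina. The called shares were 83.3%, 91.7% and 83.3% in the cornea comparisons with retina, brain and marrow, 58.3% and 75% in the retinal and brain comparisons with marrow, and 8.33% between the microglia, beside 66.0%, 66.8%, 63.3%, 59.3%, 56.0% and 10.5% of all genes. The median log2 difference of the list was -1.30, -1.73 and -0.84 in the cornea comparisons, against -0.12, 0.00 and 0 over all genes. Cmah encodes the hydroxylase that turns N-acetylneuraminic acid into N-glycolylneuraminic acid, the form that mouse Cd22 prefers and Siglec1 binds poorly. It averaged 14.5 ± 7.14 CPM in cornea macrophages, 0.0836 ± 0.0936 in retinal microglia and 5.40 ± 2.57 in monocytes (SD, n = 4 each), and had 0 counts in all 4 brain libraries. Its level in cornea macrophages was at least 47.5-fold higher than the 3-count floor of a single brain library, 0.305 CPM. Nanp, a phosphatase of the synthesis pathway, had 2 counts over the 4 cornea libraries, against 98 in retinal microglia, 46 in brain microglia and 63 in monocytes. Casd1, which acetylates sialic acid, was the member of this list that was lower in retinal than in brain microglia, at 90.7 ± 12.0 CPM against 152 ± 16.4 CPM.

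Among 13 tested sialyltransferases, 4 were higher and 6 lower in cornea macrophages than in either microglial population (3 and 8 against the retina, and 4 and 8 against the brain, with total counts only). Relative to monocytes, 5 were higher and 5 lower in cornea macrophages (5 and 7), 7 higher and 5 lower in retinal microglia, and 5 higher and 4 lower in brain microglia. The called share was 76.9% in each cornea comparison, beside 66.0%, 66.8% and 63.3% of all genes, and it was 92.3% and 69.2% in the retinal and brain comparisons with marrow, beside 59.3% and 56.0%. St3gal1, which caps O-glycans, averaged 275 ± 38.9 CPM in cornea macrophages, 6.01 ± 1.93 in retinal microglia, 1.58 ± 0.652 in brain microglia and 28.0 ± 1.02 in monocytes (SD, n = 4 each). It was higher in cornea macrophages than in each other population, by 5.51 (adjusted p = 1.1e-11), 7.42 (adjusted p = 1.49e-12) and 3.30 (adjusted p = 1.74e-09) on the log2 scale. St3gal5, the synthase of the ganglioside GM3, and St3gal6 were higher in microglia than in the other populations: they averaged 25.2 ± 6.70 and 131 ± 18.0 CPM in cornea macrophages, 275 ± 23.4 and 352 ± 45.5 in retinal microglia, 349 ± 12.1 and 395 ± 23.0 in brain microglia, and 41.9 ± 9.71 and 3.29 ± 0.706 in monocytes. St6gal1, which makes the linkage that Cd22 binds, was higher in every tissue population than in monocytes, by 2.44 in cornea macrophages (adjusted p = 4.61e-09), 2.98 in retinal microglia (adjusted p = 6.3e-10) and 3.37 in brain microglia (adjusted p = 1.29e-10). St8sia4, a polysialyltransferase, was highest in monocytes, with 142 ± 35.8 CPM in cornea macrophages, 26.6 ± 11.1 in retinal microglia, 28.5 ± 9.41 in brain microglia and 387 ± 67.2 in monocytes.

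**Figure D5:**
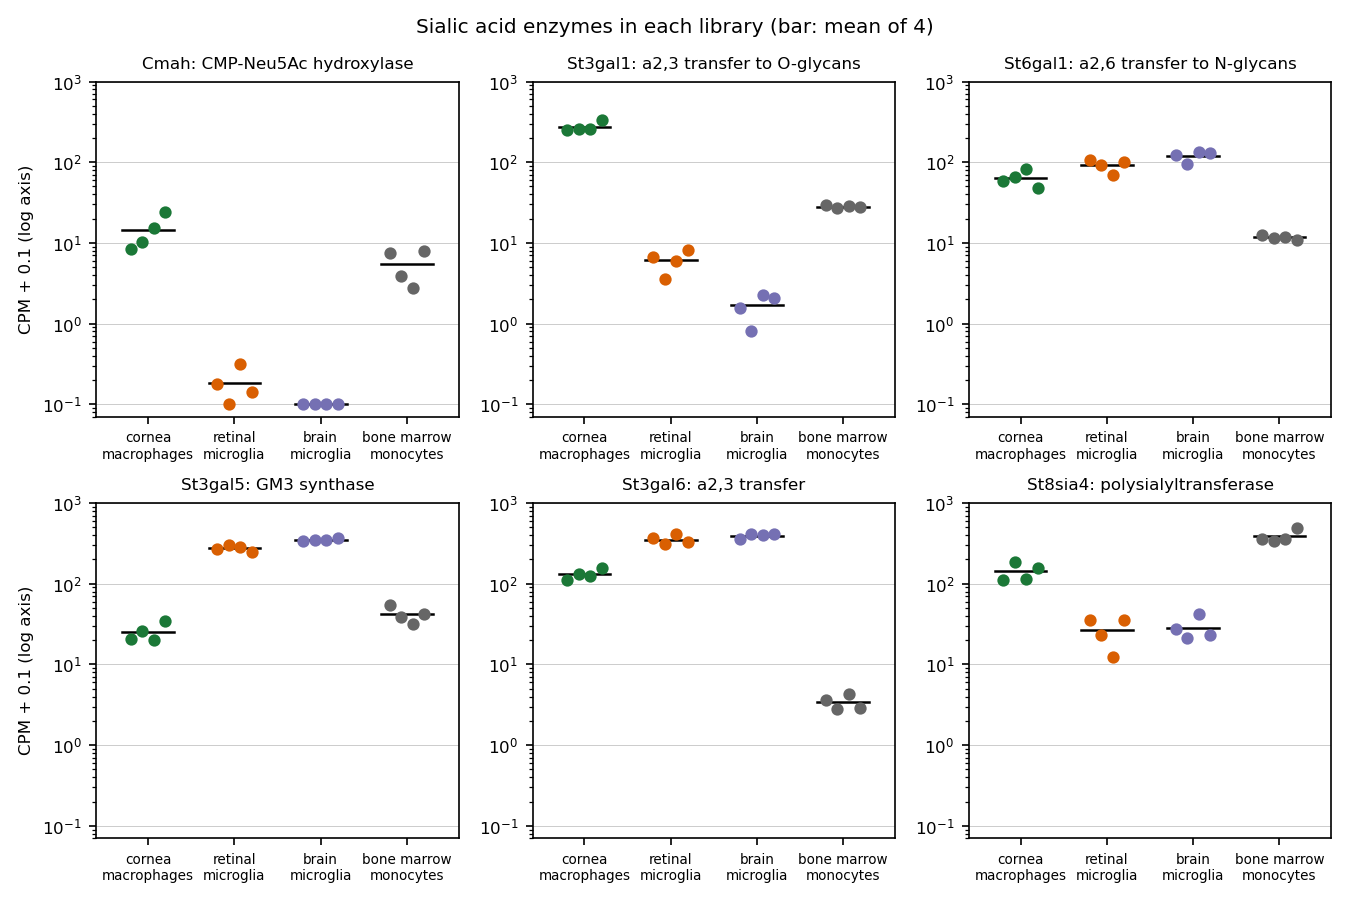
CPM plus 0.1 on a log axis for 6 enzymes of sialic acid metabolism in every library, with 1 point per library and a bar at the mean of 4. Cmah and St3gal1 are high in cornea macrophages and lower in both microglial populations, while St3gal5 and St3gal6 are high in microglia.

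A list of 19 genes held adaptors and signalling genes together with the separate receptor genes Pilra, Pilrb1, Cd300a and Trem2. Its counts are therefore not those of siglec signalling alone. Of the 19, 8 were higher and 8 lower in cornea macrophages than in retinal microglia (5 and 11 with total counts only). In cornea macrophages 8 were higher and 9 lower than in brain microglia (5 and 10), and 5 higher and 10 lower than in monocytes (3 and 13). Relative to monocytes, 3 were higher and 12 lower in retinal microglia (3 and 8), and 3 higher and 11 lower in brain microglia. Between retinal and brain microglia, 2 were higher and 5 lower (3 and 4). The called shares were 84.2%, 89.5% and 78.9% in the cornea comparisons with retina, brain and marrow, 78.9% and 73.7% in the retinal and brain comparisons with marrow, and 36.8% between the microglia, beside 66.0%, 66.8%, 63.3%, 59.3%, 56.0% and 10.5% of all genes. Ptpn6, which encodes SHP-1, was lowest in cornea macrophages, at 108 ± 10.1 CPM, against 530 ± 77.8 in retinal microglia, 414 ± 34.1 in brain microglia and 877 ± 68.6 in monocytes. Socs3, a feedback inhibitor of cytokine signalling, averaged 742 ± 253 CPM in cornea macrophages, 91.9 ± 37.2 in retinal microglia, 36.9 ± 7.37 in brain microglia and 4.76 ± 1.38 in monocytes. Tyrobp, the gene of DAP12, was named after its values were seen because Siglech signals through it. It averaged 450 ± 42.1 CPM in cornea macrophages, 623 ± 115 in retinal microglia, 607 ± 115 in brain microglia and 866 ± 163 in monocytes, so that it was highest in the population with the least Siglech (log2 fold change -0.48 in retinal microglia, adjusted p = 0.0228, and -0.51 in brain microglia, adjusted p = 0.0157, relative to monocytes); the retinal call ended with total counts only (adjusted p = 0.0568).

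Of 6 sialylated surface proteins described as siglec ligands or common carriers of sialic acid, 5 were higher and 1 lower in cornea macrophages than in retinal microglia (3 and 1 with total counts only), and 4 higher and 1 lower than in brain microglia (4 and 2). Relative to monocytes, 1 was higher and 4 lower in cornea macrophages (0 and 5), and 1 was higher and 5 lower in each microglial population. With 6 genes, the called share was 100%, 83.3% and 83.3% in the cornea comparisons, beside 66.0%, 66.8% and 63.3% of all genes, and 100% in both comparisons of microglia with monocytes, beside 59.3% and 56.0%. Spn, the gene of the mucin-like CD43, a known Siglec1 counter-receptor, averaged 8.08 ± 0.871 CPM in cornea macrophages, 0.469 ± 0.589 in retinal microglia, 0.179 ± 0.170 in brain microglia and 68.1 ± 6.12 in monocytes. Selplg, the gene of the selectin ligand PSGL-1, was the member higher in microglia: it ranged over 141 to 168 CPM in cornea macrophages, 3729 to 6990 in retinal microglia, 5244 to 6295 in brain microglia and 761 to 822 in monocytes. Muc1, a membrane mucin, averaged 4.33 ± 0.397 CPM in cornea macrophages and was at 0 counts in all 8 microglial libraries, which allows up to 3 counts in each. Cornea epithelium also expresses Muc1, and 8 genes of cornea epithelium and stroma summed to 1282 to 2272 CPM in the cornea libraries, against at most 0.6 CPM elsewhere; their part in the Muc1 and Cmah counts was not tested.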

How the data were processed

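The data are 16 bulk RNA-seq libraries of sorted mouse cells, 4 for each of 4 populations. The deposited table holds whole-number counts per gene and an exon length in bases, per the file headers; the submitters' processing notes name CASAVA 1.8.2, Subread, featureCounts, limma and the build GRCm38.p4. The extraction text describes another tissue, so whether reads were counted by strand is not known. The 6 genes, the gene lists and the markers were chosen with earlier results of these data known.

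Counts were analysed with edgeR 4.0.16 in R 4.3.3: genes were kept by filterByExpr at a minimum count of 10 by population, libraries were scaled by TMM, and all 16 entered 1 quasi-likelihood fit with population as the only term. Adjusted p-values are Benjamini-Hochberg values over 15754 genes, called under 0.05. CPM and RPKM were computed from the deposited counts and lengths. The fit was tested on simulated data. Named genes were the 6 members and the 3 genes with the highest Pearson r of log2 CPM (prior count 2) to each member. Further genes were drawn from the called genes of each list, up to 4 per comparison with the largest log2 differences. Not all of these are named. Cd79b, Pax5, Ly6d, Pacsin1, Cox6a2, Ccr9, F13a1, P2ry12, Tyrobp and the genes of the other siglecs were named beside a member, and Mog beside Mag. p-values measure the spread between libraries, and no label says that the 4 are separate in every step. Alternatives were total counts only, other size factors, no filter, DESeq2 1.42.0, lane as a term, libraries left out or summed and, chosen after seeing the data, single lanes. Floors of 3 counts cover counting error only. 27 entries with date-like symbols were left as they stand.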

Additional observations from a re-analysis of the deposited data

Results flagged for a closer look

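Of 24 groups of 4 libraries, that is 6 genes in 4 populations, 3 held a library that stood apart from the other 3 by Dixon's criterion, which chance meets in about 1 group in 20. Siglec1 in brain microglia replicate 2 was at 1.73 CPM, above 0.145 to 0.257 CPM in the other brain libraries. Siglece in retinal microglia replicate 2 was at 63.6 CPM, above 49.8 to 51.1 CPM in the others. Cd33 in cornea macrophages replicate 1 was at 354 CPM, below 397 to 405 CPM in the others.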

How the results depend on the processing

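Of the 36 log2 fold changes of the 6 genes, 35 of 36 kept their direction and their side of the threshold with DESeq2, 36 of 36 with RLE size factors, 36 of 36 with only the 2 populations compared, 34 of 36 without the filter on low counts, 32 of 36 with lane as a term, 31 of 36 without the libraries lacking the letter b, and 28 of 36 with total counts only; with 1 library left out, 559 of 576 values did so. Total counts only turned round 4 differences: Siglece (-0.61) and Cd33 (-0.043) between cornea macrophages and retinal microglia, and Cd33 (-0.31) and Siglecg (-0.64) between cornea macrophages and brain microglia. Without the libraries lacking the letter b, Siglecg turned to 0.048 between cornea macrophages and retinal microglia. Leaving out 1 library at a time moved the Siglecg difference between cornea macrophages and brain microglia between -0.12 (without cornea replicate 4) and 0.13 (without brain replicate 2). The count of members called between retinal and brain microglia was 2; it was 0 with lane as a term, 0 without the libraries lacking the letter b, 1 with libraries of a shared title number summed, and 1 to 2 with 1 library left out. Between cornea macrophages and brain microglia it was 5, and 2 within lane 3, where cornea macrophages have 1 library. Over all genes, 463 were called between retinal and brain microglia with lane as a term, in place of 1662. Within lane 2, with 1 monocyte library, 6239 were called between cornea macrophages and monocytes, in place of 9980, and 5378 between retinal microglia and monocytes, in place of 9338. The cause of these changes was not tested.

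Titles give brain and marrow replicates 3 and 4 the shared tags 4-6 and 7-9. Deviations of same-tag libraries from their population means correlated at 0.012 and 0.048. Such values from different cell types cannot show whether same-tag libraries came from the same mice, which is not known. With a replicate block by tag all 6 members were called between brain microglia and monocytes, as without it. Depth limits Siglec1 in brain microglia, Siglech and Cd22 in monocytes, where single libraries held 0 to 17 counts.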

Other observations

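Other genes of the family were followed in the same libraries. Siglecf, at chr7:43351341-43359531 on the plus strand of GRCm38, is best known from eosinophils. It measured 2.49, 3.24, 2.92 and 2.59 CPM in cornea macrophages, 43.4, 38.9, 54.8 and 40.7 CPM in retinal microglia, 28.9, 37.9, 45.2 and 57.1 CPM in brain microglia, and 1.85, 0.299, 1.64 and 0.781 CPM in monocytes. Cornea macrophages were below retinal microglia by 3.98 on the log2 scale (-3.98, SE 0.33, adjusted p = 1.57e-08) and below brain microglia by 3.90 (-3.90, SE 0.33, adjusted p = 1.87e-08). Retinal microglia exceeded monocytes by 5.20 (SE 0.36, adjusted p = 2.04e-09) and brain microglia exceeded them by 5.13 (SE 0.36, adjusted p = 2e-09). Of 7 eosinophil markers, 4 were at 0 in all retinal libraries and 6 in all brain libraries, and the list summed to 1.51 to 3.55 CPM and 0.653 to 1.97 CPM there, below Siglecf. In marrow replicate 1, where Siglecf was highest among monocytes, the list summed to 51.7 CPM. The promoter windows of Siglecf and Cd33 shared a run of 16 bases, longer than that of any other pair of the genes compared, which reached at most 10.

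Mag, the siglec of myelin, measured 0.852 to 4.19 CPM in cornea macrophages, 14.4 to 19.5 CPM in retinal microglia, 17.2 to 22.6 CPM in brain microglia and 0 to 0.399 CPM in monocytes. Mog, an oligodendrocyte marker, was at 0 to 0.754 CPM in retinal and 0 to 0.298 CPM in brain microglia. Siglec15 had 9 counts over the 4 cornea libraries and 0 in every other library, which allows up to 3 counts in each.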
